A study of Mus musculus with 8 samples.

Results

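The genes described here encode the nuclear subunits of the oxidative phosphorylation machinery, and they were compared between Raw264.7 cells on 2 bone scaffold materials. Members were the protein-coding genes whose symbols name a subunit of NADH dehydrogenase (Nduf), succinate dehydrogenase (Sdh), the cytochrome bc1 complex (Uqcr, Cyc1) with cytochrome c (Cycs), cytochrome c oxidase (Cox4 to Cox8) or ATP synthase (Atp5). Assembly factors and 12 pseudogene or noncoding copies with matching symbols were left out. This gave 87 members among the 55335 gene identifiers of the deposited table: 37 of complex I, 4 of complex II, 10 of complex III with cytochrome c, 18 of complex IV and 18 of complex V. Each gene was placed in a complex by its symbol alone, which is how Ndufa4 and Ndufa4l2 came to be counted under complex I. The members carry 86 symbols, because Atp5o has 2 identifiers. Symbols are the older ones of the GRCm38 annotation, in which Atp5a1 and Atp5b stand for the alpha and beta subunits of ATP synthase.

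Raw264.7 is a mouse tumour line with many traits of macrophages. Cells of the TABS group were kept for 3 days with the Trio-Active bone scaffold, and cells of the HA/Mg group for 3 days with hydroxyapatite doped with Mg2+. Each group had 4 libraries, numbered as replicates 5 to 8, and no cells without a scaffold were analysed here, so every value sets TABS against HA/Mg. The labels do not say whether replicates are separate cultures. The p-values therefore measure the spread among these 8 libraries, part or all of which could be technical. TABS libraries are named with the letter H and HA/Mg libraries with L, which the labels do not explain, and an exchange of the 2 would turn every direction round. What TABS is made of is not described in the labels either. Between 9908 and 10280 genes per library reached 1 FPKM, and as an estimate from the spacing of low values the depth was 19600000 to 23500000 fragments per library.

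Oxidative phosphorylation takes place in the inner mitochondrial membrane. Complexes I and II pass electrons from NADH and succinate to ubiquinone, complex III passes them to cytochrome c, and complex IV reduces oxygen to water. Complexes I, III and IV pump protons across the membrane, and complex V lets them flow back to make ATP. Mitochondrial DNA encodes a small set of core subunits of complexes I, III, IV and V, and all other subunits, including the whole of complex II, come from nuclear genes. In macrophages the balance between this pathway and glycolysis is known to shift with activation.

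Most nuclear subunit genes differed little between the materials. Values are FPKM, fragments scaled to transcript length and library size, and changes are differences of log2(FPKM + 1), with HA/Mg subtracted from TABS. Of the 87 members, 80 reached 1 FPKM in at least 4 of the 8 libraries and were tested, with limma over all 10161 genes that passed this filter and an adjusted p under 0.05 as the threshold. The test called 4 of the 80: Uqcrq, Uqcrc1 and Cox4i1 were higher with TABS and Ndufs1 was lower. Over all tested genes 18.1% were called, 5.07% higher and 13.1% lower, against 3.75% higher and 1.25% lower among the members. Uqcrq and Uqcrc1 belong to complex III, Cox4i1 to complex IV and Ndufs1 to complex I, and no tested member of complex II (4 genes) or complex V (17 genes) was called. In RNA from whole cultures, fewer cells of a type and less RNA per cell cannot be told apart.

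The changes were small and mostly positive. The members' median log2 change was 0.09, against -0.04 over all tested genes. The change was positive for 60 of 80 members (75%), against 42.3% of all tested genes. By complex the median change was 0.07 in complex I, 0.07 in complex II, 0.12 in complex III, 0.11 in complex IV and 0.08 in complex V. The number of positive changes depended on the scaling: it was 72 of 80 after median-of-ratios scaling and 50 of 80 after rescaling to equal sums, where the members' median was 0.04. The median of all tested genes moved too, to 0.01 after median-of-ratios scaling and -0.08 after rescaling to equal sums. The members' median exceeded it by 0.13 and 0.12 there, against 0.12 in the main setting and 0.06 after quantile normalization. At an unadjusted p under 0.05, 13 members passed (11 higher, 2 lower), which is 16.2% of them, against 36.4% of all tested genes. The 95% interval of the log2 change lay within 0.5 of 0 for 77 of the 80 members and within 0.3 of 0 for 55. Over all 10161 tested genes it did so for 8580 and 4895. The members were also more abundant, with a median level of 53.6 FPKM against 7.74 FPKM over all tested genes.

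Group separation was also uncommon. In 7 members all 4 TABS libraries lay above all 4 HA/Mg libraries (8.75%, against 8.05% of all tested genes), namely Ndufa10, Uqcrc1, Uqcrq, Cox4i1, Cox7a2l, Atp5a1 and Atp5g1. Ndufs1 was the only member whose TABS libraries all lay below (1.25%, against 15.0% of all tested genes). In either direction, 23.1% of all tested genes had groups that did not overlap.

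**Figure D1:**
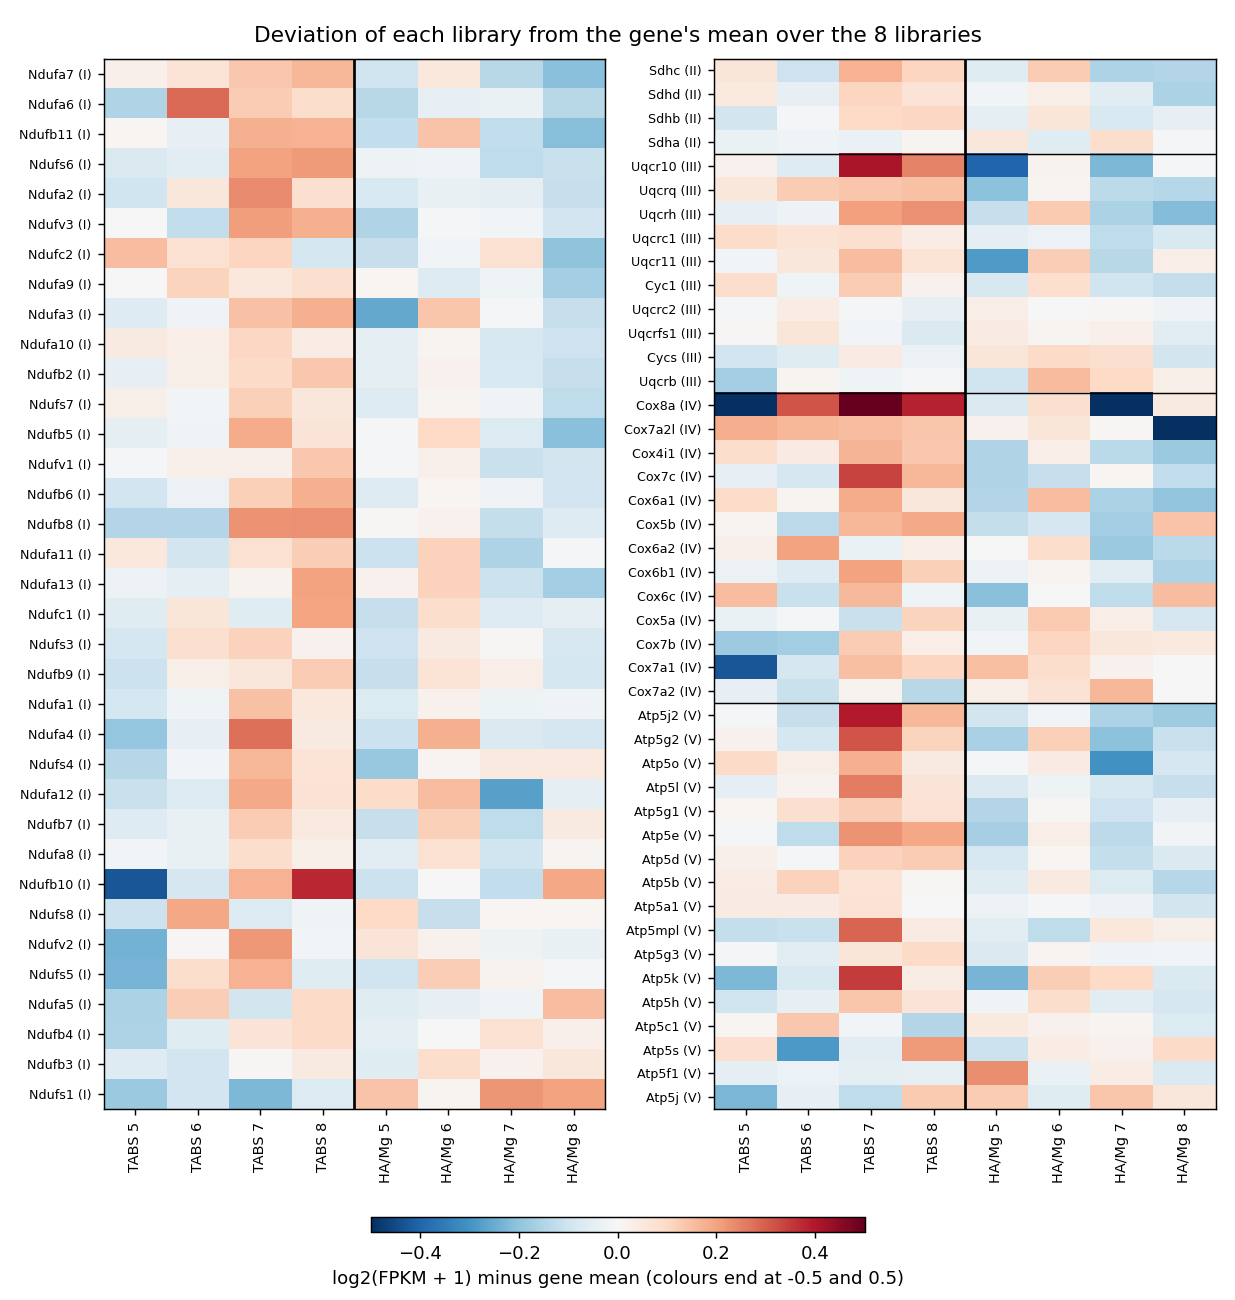
Deviation of each library from a gene's mean over the 8 libraries (log2(FPKM + 1), colours ending at -0.5 and 0.5) for 79 of the 80 tested members, with the 4 TABS libraries on the left and the 4 HA/Mg libraries on the right of the vertical line, and each gene's complex in brackets. TABS replicate 7 is the reddest TABS column and HA/Mg replicate 6 the reddest HA/Mg column.

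Libraries within a group stood at different heights across these genes. The median deviation of the 80 members from their own means was -0.03, -0.02, 0.13 and 0.08 on the log2 scale in TABS replicates 5, 6, 7 and 8. It was -0.06, 0.02, -0.05 and -0.08 in HA/Mg replicates 5, 6, 7 and 8. TABS replicate 7 was the highest TABS library in 41 members, and HA/Mg replicate 6 was the highest HA/Mg library in 57 and lay above the TABS mean in 38. Without HA/Mg replicate 6, 13 members were called higher and Ndufs1 lower, while 32.7% of all genes were called (8.54% higher, 24.1% lower). The 13 were Ndufa7, Ndufa10 and Ndufb11 of complex I, Cyc1, Uqcrc1, Uqcrh and Uqcrq of complex III, Cox4i1 and Cox6a1 of complex IV, and Atp5b, Atp5d, Atp5g1 and Atp5o of complex V. With array weights, which let limma give less weight to a library that stands apart, 13 members were higher and 2 lower, with 34.8% of all genes called (10.3% higher, 24.4% lower). Without HA/Mg replicate 5 or HA/Mg replicate 7 no member was called, while 429 and 475 genes were called over the whole table. Without HA/Mg replicate 8 only Ndufs1 was called among the members, with 694 genes over the table. Whichever TABS library was left out, Uqcrq and Ndufs1 were called, joined by Ndufa6 as higher without TABS replicate 5 and by Cox4i1 without TABS replicate 6, with 858, 1143, 943 and 1227 genes called over the table without TABS replicates 5, 6, 7 and 8.

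Transcript length and base composition moved with the change over the whole table. Across the 10157 tested genes with an annotated transcript, the Spearman correlation of the log2 change was -0.31 with the length of the longest transcript and 0.54 with its GC content, as a description over genes that are not independent replicates. Across the 80 members it was -0.09 with length and 0.26 with GC content. The members' transcripts were shorter than those of all tested genes, with a median of 1088 bases against 3039, at a similar median GC content of 50.2% against 49.8%. Removing each library's trends on length and GC content left 6.37% of all tested genes called (2.59% higher, 3.78% lower) and Uqcrq alone among the members. The members' median then was 0.08, and it exceeded the median of all tested genes by 0.08, against 0.12 before the removal. This removal also took out each library's mean over genes, which raised every log2 change by the same amount. With library means kept, an alternative added after the data were seen, the median was 0.03 for members and -0.05 over all tested genes. The change was then positive for 46 of 80 members.

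Complex I oxidises NADH and is the largest of the 5 complexes. Of its 37 nuclear members 36 were tested, 29 had a positive change, and Ndufs1 alone was called. Ndufs1 encodes the largest core subunit of the arm where NADH is oxidised, which carries iron-sulfur clusters, and lies at chr1:63143596-63176833 on the minus strand of GRCm38. Its level was 15.2, 16.3, 14.8 and 16.6 FPKM in TABS replicates 5 to 8, against 19.3, 17.6, 20.5 and 20.2 FPKM in HA/Mg replicates 5 to 8. The groups did not overlap, and HA/Mg replicate 6 stood nearest to the TABS libraries. The means were 15.7 ± 0.857 FPKM with TABS and 19.4 ± 1.29 FPKM with HA/Mg (SD, n = 4 each), a log2 change of -0.29 ± 0.06 (SE) with a limma adjusted p of 0.0168. The call was lost without HA/Mg replicate 5 (adjusted p = 0.0550) or 7 (0.0576). After the removal of length and GC trends the log2 change was -0.17 with an adjusted p of 0.0521. With library means kept in that removal, an alternative added after the data were seen, it was -0.21 with an adjusted p of 0.0470. The 5′ end of Ndufs1 shares 9 exon bases with Eef1b2 on the opposite strand, a translation elongation factor gene at 291 ± 10.3 FPKM with TABS and 279 ± 12.7 FPKM with HA/Mg (adjusted p = 0.351).

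Ndufv1, the flavoprotein that takes electrons from NADH, had 39.7, 40.6, 40.5 and 43.9 FPKM with TABS and 39.7, 40.6, 36.9 and 37.4 FPKM with HA/Mg. The groups overlapped there, and the log2 change of 0.09 ± 0.05 was not called (adjusted p = 0.213). The largest positive change of complex I was that of Ndufa7, an accessory subunit named here after its values were seen. It stood at 29.6, 30.6, 32.1 and 32.8 FPKM with TABS and at 27.1, 30.2, 26.4 and 25.1 FPKM with HA/Mg, with HA/Mg replicate 6 inside the TABS range and a log2 change of 0.20 ± 0.06 (adjusted p = 0.0525). Mean levels of tested complex I members had a median of 34.8 FPKM, and the lowest was 2.30 FPKM for Ndufb2.

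Complex II, which also belongs to the tricarboxylic acid cycle, showed the most even levels. Its 4 genes had means over the 8 libraries of 81.9 FPKM for Sdhc, 88.2 FPKM for Sdha, 94.3 FPKM for Sdhb and 186 FPKM for Sdhd. Sdha, the flavoprotein that oxidises succinate, had 86.0, 86.7, 86.1 and 89.1 FPKM in TABS libraries, against 91.8, 84.6, 93.8 and 87.4 FPKM with HA/Mg. Its log2 change was -0.04 ± 0.04 with a 95% interval of -0.13 to 0.06, and the groups overlapped. Sdhb, the iron-sulfur subunit, had 88.4, 93.5, 101 and 101 FPKM with TABS and 91.2, 98.1, 89.3 and 91.4 FPKM with HA/Mg, with a log2 change of 0.05 ± 0.05. The membrane anchors Sdhd and Sdhc had the smallest p-values of the complex. Sdhd averaged 192 ± 8.30 FPKM with TABS and 180 ± 10.1 FPKM with HA/Mg (adjusted p = 0.224), and Sdhc 85.3 ± 6.90 FPKM with TABS and 78.5 ± 7.48 FPKM with HA/Mg (adjusted p = 0.293; SD, n = 4 each). In both anchors HA/Mg replicate 6 was the highest HA/Mg library, at 191 FPKM for Sdhd and 89.2 FPKM for Sdhc, and lay above at least 1 TABS library.

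Complex III held 2 of the 4 called genes. Uqcrq encodes a small accessory subunit of the bc1 complex and lies at chr11:53427922-53430831 on the minus strand. It had 30.6, 32.3, 32.5 and 32.7 FPKM with TABS and 25.4, 29.7, 26.8 and 26.6 FPKM with HA/Mg. The groups were separate, and HA/Mg replicate 6 stood nearest to TABS. The means were 32.0 ± 0.937 FPKM with TABS and 27.1 ± 1.83 FPKM with HA/Mg (SD, n = 4 each), a log2 change of 0.23 ± 0.05 with an adjusted p of 0.0208. The call held after the removal of length and GC trends (log2 change 0.23, adjusted p = 0.0345), and it was lost without HA/Mg replicate 5, 7 or 8 (adjusted p = 0.0683, 0.0651 and 0.0565).

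Uqcrc1, at chr9:108936633-108949623 on the plus strand, encodes a core protein on the matrix side of the complex. It had 111, 109, 110 and 106 FPKM in TABS libraries, against 100.2, 102, 94.8 and 98.1 FPKM with HA/Mg. All TABS libraries were higher, by a narrow margin, and the means were 109 ± 1.85 FPKM with TABS and 98.7 ± 2.94 FPKM with HA/Mg (SD, n = 4 each). The log2 change was 0.14 ± 0.04 with an adjusted p of 0.0335. This call was lost on leaving out any library other than HA/Mg replicate 6: the adjusted p was 0.0742, 0.0653, 0.0726 and 0.0511 without TABS replicates 5, 6, 7 and 8, and 0.0818, 0.103 and 0.0798 without HA/Mg replicates 5, 7 and 8. After the removal of length and GC trends it was 0.123, with a log2 change of 0.11. The call was also lost after rescaling to equal sums, after quantile normalization, after leaving out abundant gene classes and without the mean-variance trend (adjusted p = 0.118, 0.0809, 0.104 and 0.0579).

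Uqcrc2, the partner core protein of Uqcrc1, was not called. It had 144, 149, 144 and 141 FPKM with TABS and 149, 145, 146 and 143 FPKM with HA/Mg, and a log2 change of -0.01 ± 0.04 with a 95% interval of -0.09 to 0.07. Uqcrc2 was chosen after its values were seen. Uqcrfs1, the Rieske iron-sulfur protein, averaged 123 ± 4.66 FPKM with TABS and 124 ± 3.75 FPKM with HA/Mg (SD, n = 4 each; adjusted p = 0.862). Cyc1, the heme-bearing cytochrome c1, had 139, 128, 142 and 132 FPKM with TABS and 123, 138, 121 and 120 FPKM with HA/Mg, with HA/Mg replicate 6 inside the TABS range (log2 change 0.11 ± 0.06, adjusted p = 0.195). Cytochrome c itself, from Cycs, had 44.4, 45.6, 49.0 and 46.6 FPKM with TABS and 49.5, 50.8, 50.3 and 44.5 FPKM with HA/Mg, and the groups overlapped (log2 change -0.07 ± 0.05, adjusted p = 0.358). Uqcr10, named after its values were seen, had the largest change of the complex, 0.31 ± 0.12, over a wide spread: 109, 102, 142 and 127 FPKM in TABS libraries, against 80.9, 108, 91.3 and 106 FPKM with HA/Mg (adjusted p = 0.1).

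Complex IV transfers electrons from cytochrome c to oxygen. Cox4i1, the widespread isoform of the largest nuclear subunit, to which ATP binds, lies at chr8:120668222-120674207 on the plus strand. Its level was 256, 248, 271 and 265 FPKM in TABS replicates 5 to 8, against 217, 247, 219 and 211 FPKM in HA/Mg replicates 5 to 8. The groups were separate, but TABS replicate 6 and HA/Mg replicate 6 nearly met. The means were 259.8 ± 10.2 FPKM with TABS and 224 ± 15.6 FPKM with HA/Mg (SD, n = 4 each), a log2 change of 0.22 ± 0.06 with an adjusted p of 0.0308. The call was lost without TABS replicates 5, 7 or 8 (adjusted p = 0.0621, 0.0731 and 0.0680) and without HA/Mg replicates 5, 7 or 8 (0.0919, 0.0888 and 0.0809). After the removal of length and GC trends the log2 change was 0.09 with an adjusted p of 0.206, and with no filter on low values the adjusted p was 0.0767. Cox4i1 shares 154 exon bases, 9.94% of its own, with Emc8 on the opposite strand, a gene at 2.66 ± 0.402 FPKM with TABS and 2.33 ± 0.251 FPKM with HA/Mg.

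**Figure D2:**
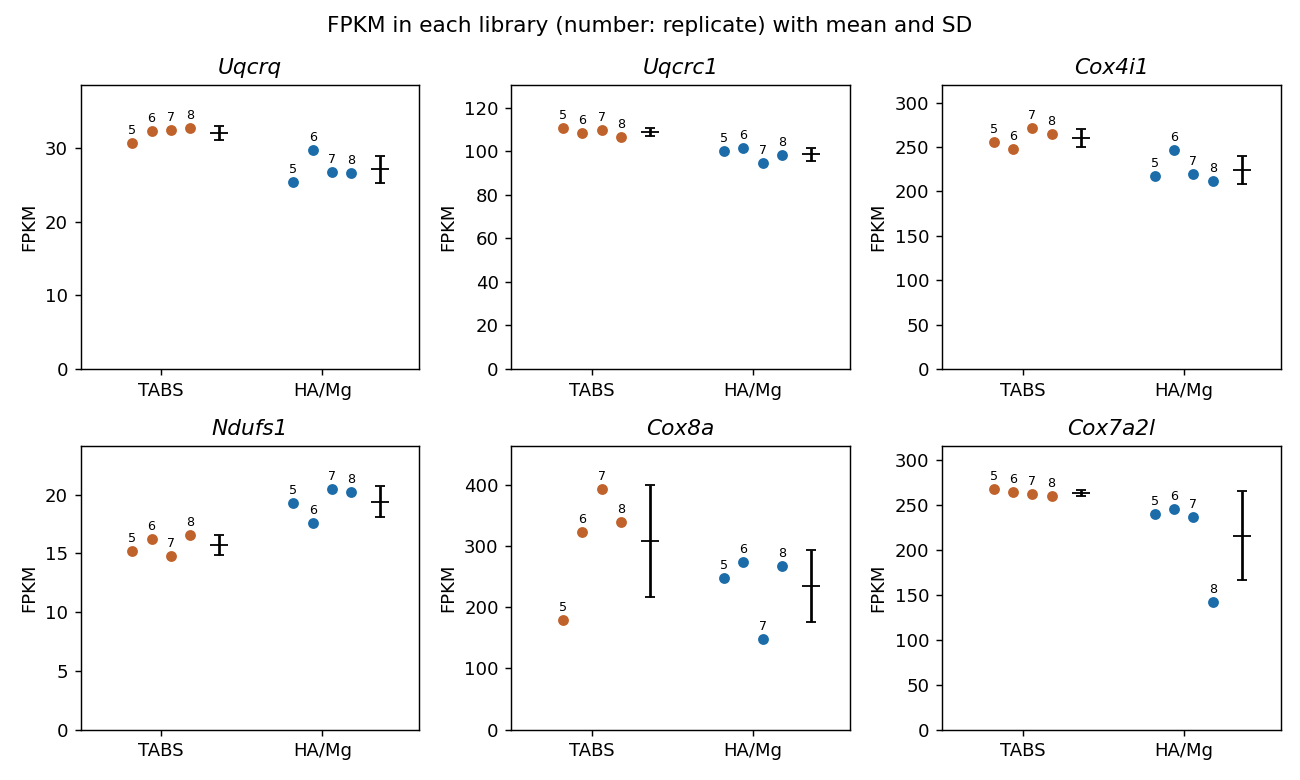
FPKM in each library (numbers are replicates, vertical axes start at 0) with group mean and SD, for the 4 called members Uqcrq, Uqcrc1, Cox4i1 and Ndufs1 and for Cox8a and Cox7a2l, with TABS left of HA/Mg in each panel. The called members have small spreads, while Cox8a overlaps widely and HA/Mg replicate 8 of Cox7a2l stands alone at 142 FPKM.

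The other subunits of complex IV were not called, and some had the widest spreads of all members. Cox5a averaged 87.6 ± 5.80 FPKM with TABS and 88.9 ± 5.91 FPKM with HA/Mg (95% interval of the log2 change -0.16 to 0.12), and the zinc-binding subunit Cox5b 44.7 ± 4.60 FPKM with TABS and 41.0 ± 4.2 FPKM with HA/Mg (adjusted p = 0.350; SD, n = 4 each). The 3 genes in the next sentences, and Cox7a2, were named after their values were seen. Cox8a, the smallest subunit, had 179, 323, 393 and 339 FPKM with TABS and 247, 274, 148 and 268 FPKM with HA/Mg. Its 2 lowest libraries belong to different groups, and the 95% interval of its log2 change ran from -0.21 to 0.97. Cox7a2l, whose protein has been linked to supercomplexes of complexes III and IV, had 268, 265, 262 and 260 FPKM in TABS libraries, against 239, 246, 237 and 142 FPKM with HA/Mg. The low HA/Mg library was replicate 8, and the adjusted p was 0.168 with it and 0.0776 without it. Cox6a1 had 373, 353, 399 and 364 FPKM with TABS and 317, 390, 314 and 306 FPKM with HA/Mg, so HA/Mg replicate 6 lay among the TABS libraries. Its log2 change was 0.17 (adjusted p = 0.146), and without HA/Mg replicate 6 the adjusted p was 0.00826. Cox7a2 was on the other side, at 87.7 ± 4.34 FPKM with TABS and 96.5 ± 4.85 FPKM with HA/Mg (SD, n = 4 each; log2 change -0.14, adjusted p = 0.0891). It was called lower after rescaling to equal sums, after leaving out abundant gene classes, with array weights, and after removing length and GC trends with library means kept (adjusted p = 0.0368, 0.0378, 0.0325 and 0.0364). Under the first 2 of these the members called were Cox4i1 and Uqcrq as higher and Ndufs1 and Cox7a2 as lower.

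Several of the subunits have isoforms restricted to muscle, heart, lung, testis or low oxygen, and nearly all of these were at or near 0. Cox6b2, Cox8b and Cox8c were listed at 0 in all 8 libraries, as were Cox7b2 and the second Atp5o identifier. Ndufa4l2, an isoform induced by low oxygen, had at most 0.129 FPKM, and Cox4i2, the lung isoform, at most 0.810 FPKM, and neither passed the filter. Cox7a1, the heart and muscle form beside Cox7a2, averaged 1.53 ± 0.435 FPKM with TABS and 1.74 ± 0.133 FPKM with HA/Mg (adjusted p = 0.471). The exception was Cox6a2, the heart and muscle form beside Cox6a1. It had 19.8, 22.5, 19.0 and 19.9 FPKM in TABS libraries, against 19.5, 20.7, 17.0 and 17.6 FPKM with HA/Mg, and the groups overlapped (log2 change 0.11, adjusted p = 0.288). Relative to Cox6a1 this was 5.47 ± 0.667% with TABS and 5.66 ± 0.381% with HA/Mg (SD, n = 4 each). The 8 muscle markers examined were all under 1 FPKM, 6 of them listed at 0.

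Complex V makes ATP, and none of its 17 tested genes was called. The catalytic beta subunit Atp5b was the most abundant member of all, at 683, 721, 699 and 668 FPKM with TABS and 639, 687, 635 and 603 FPKM with HA/Mg. Only HA/Mg replicate 6 reached the TABS range, and the log2 change was 0.11 ± 0.05 (adjusted p = 0.150). The alpha subunit Atp5a1 was separate between the groups, at 509.8, 511, 521 and 496 FPKM with TABS and 485, 493, 488 and 466 FPKM with HA/Mg, but its log2 change of 0.08 ± 0.04 was not called (adjusted p = 0.203). Atp5d, the delta subunit of the central stalk, averaged 114 ± 5.12 FPKM with TABS and 104 ± 3.99 FPKM with HA/Mg (SD, n = 4 each; log2 change 0.13, adjusted p = 0.0776).

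The membrane ring of complex V is built from c subunits, and 3 genes encode the same mature c protein behind different import sequences. Atp5g1 had the smallest p of the complex, at 23.3, 24.5, 25.2 and 24.3 FPKM in TABS libraries, against 20.8, 23.2, 21.4 and 22.4 FPKM with HA/Mg. The groups were separate by a narrow margin between TABS replicate 5 and HA/Mg replicate 6, and the log2 change was 0.14 ± 0.05 (adjusted p = 0.0636). Atp5g2 averaged 82.9 ± 10.1 FPKM with TABS and 73.0 ± 7.66 FPKM with HA/Mg (adjusted p = 0.201), and Atp5g3 58.5 ± 2.75 FPKM with TABS and 56.6 ± 1.45 FPKM with HA/Mg (adjusted p = 0.473; SD, n = 4 each). Of the summed FPKM of the 3 genes, Atp5g1 made up 14.7 ± 0.927%, Atp5g2 49.9 ± 2.28% and Atp5g3 35.4 ± 1.58% with TABS. With HA/Mg the shares were 14.5 ± 0.382%, 48.1 ± 1.99% and 37.4 ± 1.66%.

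**Figure D3:**
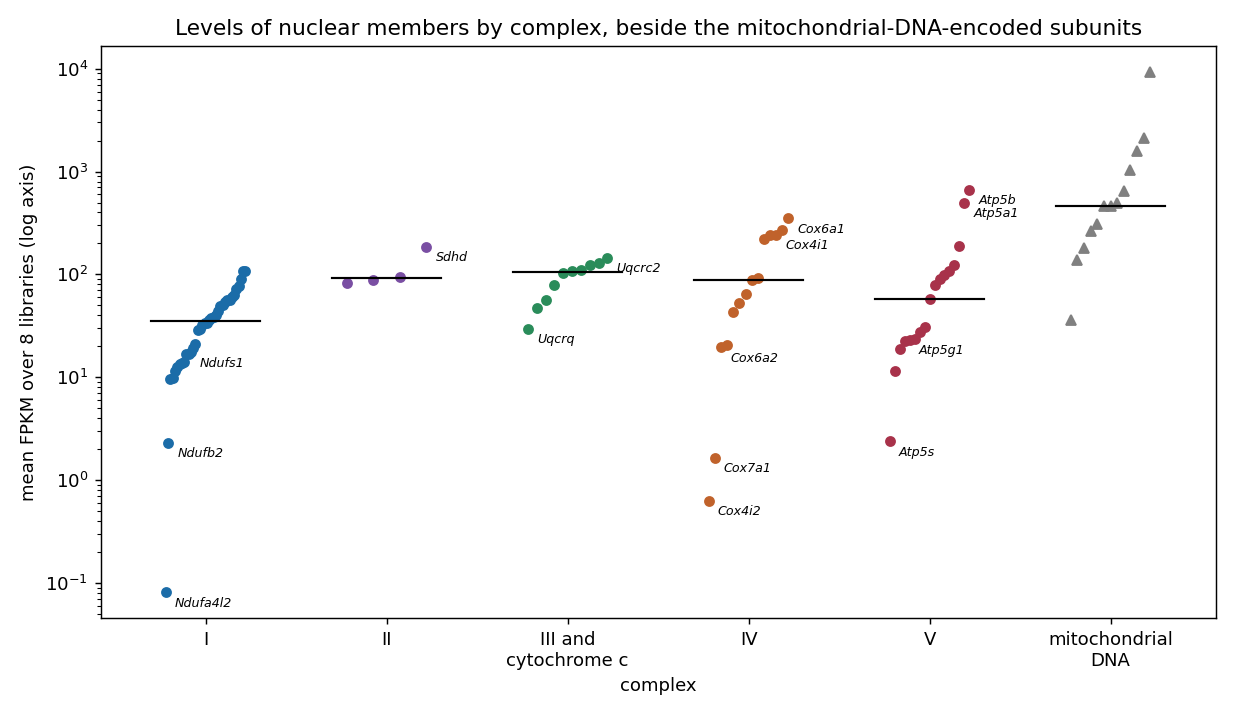
Mean FPKM over the 8 libraries (log axis) of the members above 0 other than 1, by complex, with the median of the tested members as a line, beside the subunits encoded by mitochondrial DNA as grey triangles. Atp5b, Atp5a1 and Cox6a1 lead the nuclear members, Ndufa4l2 and Cox4i2 lie under 1 FPKM, and the median of the mitochondrial-DNA-encoded subunits is above every nuclear median.

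Levels within a complex differed far more than levels between the materials. Of the 80 tested members, 20 averaged 100 FPKM or more over the 8 libraries and 5 averaged under 10. The order was led by Atp5b (667 FPKM), Atp5a1 (496 FPKM) and Cox6a1 (352 FPKM), and the lowest tested member was Cox7a1 (1.64 FPKM). Below Atp5a1 the order of neighbours is not firm: Cox8a, at 271 FPKM over the 8 libraries, ranged from 148 to 393 FPKM and so overlapped both Cox6a1 and Cox4i1. The coefficient of variation within a group had a median of 7.55% with TABS and 6.30% with HA/Mg. Median levels were 34.8 FPKM in complex I, 91.2 FPKM in complex II, 106 FPKM in complex III, 88.3 FPKM in complex IV and 57.6 FPKM in complex V.

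Some of these levels depend on how reads were shared with near-identical gene copies, which the sources used here do not describe. For 17 members a copy elsewhere in the genome matched at 97% identity or more over at least 180 aligned bases, limits set after the data were seen, and for 14 of them at least 1 copy averaged 1 FPKM or more. None of the 4 called members was among these 14. The most uneven case was Ndufb4, an accessory subunit of complex I, whose processed pseudogene Ndufb4c matched all 390 compared bases. Ndufb4 had 10.3, 11.03, 12.1 and 12.4 FPKM with TABS and 11.2, 11.5, 12.2 and 11.8 FPKM with HA/Mg. Ndufb4c was higher, at 59.6, 61.4, 67.2 and 64.0 FPKM in TABS libraries, against 54.3, 62.5, 56.5 and 53.8 FPKM with HA/Mg, so the level of Ndufb4 is uncertain. The first 150 of the shared bases are shown for both genes, because they leave no base by which a read could be assigned.
Ndufb4: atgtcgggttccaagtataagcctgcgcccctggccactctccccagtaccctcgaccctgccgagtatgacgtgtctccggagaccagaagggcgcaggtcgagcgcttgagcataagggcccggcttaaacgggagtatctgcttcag
Ndufb4c: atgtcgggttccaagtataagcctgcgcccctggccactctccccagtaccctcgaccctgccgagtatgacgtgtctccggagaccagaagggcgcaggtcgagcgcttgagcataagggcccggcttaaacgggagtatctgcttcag

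Atp5g1 and its processed pseudogene Gm10039 differed at 1 of 411 compared bases. Gm10039 had 67.1, 62.3, 64.9 and 63.2 FPKM with TABS and 59.1, 61.2, 50.6 and 60.2 FPKM with HA/Mg, well above Atp5g1 in all 8 libraries. A stretch of 150 bases that holds the differing base, in capitals, is shown for both.
Atp5g1: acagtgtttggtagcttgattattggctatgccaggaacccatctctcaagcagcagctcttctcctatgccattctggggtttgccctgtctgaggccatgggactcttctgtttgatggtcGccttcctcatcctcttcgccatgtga
Gm10039: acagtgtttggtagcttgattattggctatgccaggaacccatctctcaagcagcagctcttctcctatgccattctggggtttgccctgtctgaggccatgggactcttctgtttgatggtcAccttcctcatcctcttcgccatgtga

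Other copies with levels of the same order as their parent gene were Gm10221 (60.0 FPKM over the 8 libraries, beside 22.5 FPKM for Atp5l), Gm12338 (63.7 FPKM, beside 64.2 FPKM for Cox7c) and Gm15920 (32.6 FPKM, beside 33.3 FPKM for Ndufa12). Atp5g2 had 78.0 FPKM, beside Gm10231 with 53.2 FPKM and Gm10175 with 41.6 FPKM. Cycs, at 47.6 FPKM, has the copies Gm10053 at 25.0 FPKM and Gm10108 at 11.98 FPKM. Gm10053 was called lower, at 23.1 ± 1.58 FPKM with TABS and 26.8 ± 1.15 FPKM with HA/Mg (SD, n = 4 each; adjusted p = 0.0362), and its adjusted p was up to 0.101 when 1 library was left out. In addition 14 tested members shared exon bases with another tested gene, in each case on the opposite strand, and no source used here says whether counting used strand.

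Upstream sequences were examined for the binding motifs of regulators known for nuclear mitochondrial genes. RefSeq promoters (GRCm38.p6) matched 65 of the 80 tested members, and each motif was searched on both strands of the 250 bases before the start, in every promoter listed for a gene. The NRF1 motif, GCGCATGCG, was found in 7 members (10.8%), against 1.6% of all promoters and 4.0% of those of tested genes. The ETS motif bound by GABP, CCGGAAG, was in 12 members (18.5%), against 7.8% of all promoters and 18.4% of those of tested genes. The YY1 motif, AAGATGGCG, was in 1 member (1.5%), against 0.7% of all promoters and 1.6% of those of tested genes. The ERR motif, TCAAGGTCA, was in 1 member (1.5%), against 0.4% and 0.3%. No 2 different motifs shared a base in a member. The members with the NRF1 motif were Ndufa8, Ndufa11, Cycs, Cox6a1, Atp5g2, Atp5k and Atp5l, and none of them was called. The windows of Cox6a1 (chr5:115348982-115349208, minus strand) and Ndufa11 (chr17:56717512-56717761, plus strand) are shown with the motif, which occurs on both strands there, in capitals. The printed windows stop where an annotated exon of the gene begins, so those of Cox6a1 and Uqcrc1 are shorter than the 250 bases searched, and an ETS match of Cox6a1 lies in the bases not shown. The window of Uqcrc1 (chr9:108936398-108936632, plus strand), the called member with a promoter sequence here, held none of the 4 motifs.
Cox6a1: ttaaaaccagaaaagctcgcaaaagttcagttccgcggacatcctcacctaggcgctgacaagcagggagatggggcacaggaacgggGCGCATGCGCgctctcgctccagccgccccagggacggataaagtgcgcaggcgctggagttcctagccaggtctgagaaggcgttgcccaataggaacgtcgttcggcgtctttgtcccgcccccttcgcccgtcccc
Ndufa11: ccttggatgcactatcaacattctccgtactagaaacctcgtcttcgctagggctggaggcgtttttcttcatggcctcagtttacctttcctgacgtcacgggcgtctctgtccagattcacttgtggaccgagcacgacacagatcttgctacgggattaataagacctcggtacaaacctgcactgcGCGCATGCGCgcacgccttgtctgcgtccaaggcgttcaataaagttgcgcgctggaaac
Uqcrc1: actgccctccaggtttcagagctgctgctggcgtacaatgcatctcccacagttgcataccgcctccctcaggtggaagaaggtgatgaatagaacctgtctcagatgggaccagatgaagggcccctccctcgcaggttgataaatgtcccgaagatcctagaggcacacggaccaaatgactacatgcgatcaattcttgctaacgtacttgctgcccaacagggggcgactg

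A start of a tested gene on the opposite strand lay within 1000 bases of 24 tested members, in a head-to-head arrangement. Of these 24 neighbours 3 were called higher and 3 lower, beside 5.07% higher and 13.1% lower over all tested genes. Among the called members, the starts of Ndufs1 and Eef1b2 lie 8 bases apart and those of Cox4i1 and Emc8 351 bases apart, with overlapping 5′ ends in both pairs, and neither neighbour was called (adjusted p = 0.351 for Eef1b2 and 0.317 for Emc8).

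The subunits encoded by mitochondrial DNA are the partners of these genes in complexes I, III, IV and V. Of their 13 genes, all tested, none was called higher and 4 were called lower, all of complex I: mt-Nd1, mt-Nd4, mt-Nd4l and mt-Nd5. The shares over all tested genes were 5.07% higher and 13.1% lower. The log2 change was negative for 12 of the 13, with mt-Co3 as the exception (0.04, adjusted p = 0.761). The median over the 13 was -0.17, and -0.04 after the removal of length and GC trends, when none of the 4 was called (adjusted p = 0.0891 to 0.249). mt-Nd1 had 497, 578, 399.8 and 520.2 FPKM in TABS libraries, against 782, 555, 868 and 999.6 FPKM with HA/Mg, with HA/Mg replicate 6 inside the TABS range (log2 change -0.66 ± 0.17, adjusted p = 0.0328). mt-Nd4 averaged 406 ± 22.2 FPKM with TABS and 512 ± 36.5 FPKM with HA/Mg (SD, n = 4 each; adjusted p = 0.0135), and its call held with any 1 library left out. The calls of mt-Nd1 and mt-Nd4l were lost in 6 of these 8 repeats, and that of mt-Nd5 without HA/Mg replicate 5 or 7 (adjusted p up to 0.0921, 0.0878 and 0.0531).

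The nuclear members summed to 6607, 6829, 7334 and 7010 FPKM in TABS replicates 5 to 8, against 6426, 6867, 6301 and 6196 FPKM in HA/Mg replicates 5 to 8, and the groups overlapped through HA/Mg replicate 6. The mitochondrial-DNA-encoded subunits summed to 16803, 16099, 16606 and 15774 FPKM with TABS and 17660, 18313, 17536 and 17660 FPKM with HA/Mg. The ratio of the second sum to the first was 2.54, 2.36, 2.26 and 2.25 with TABS, against 2.75, 2.67, 2.78 and 2.85 with HA/Mg. The ratio was lower in every TABS library than in any HA/Mg library, and it is given as a description with no test. The largest part of the mitochondrial-DNA-encoded sum was mt-Co1, at a mean of 9306 FPKM over the 8 libraries. That gene was not called (adjusted p = 0.342). Neither sum was adjusted for length and GC trends, and the part of those trends in the ratio was not tested.

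**Figure D4:**
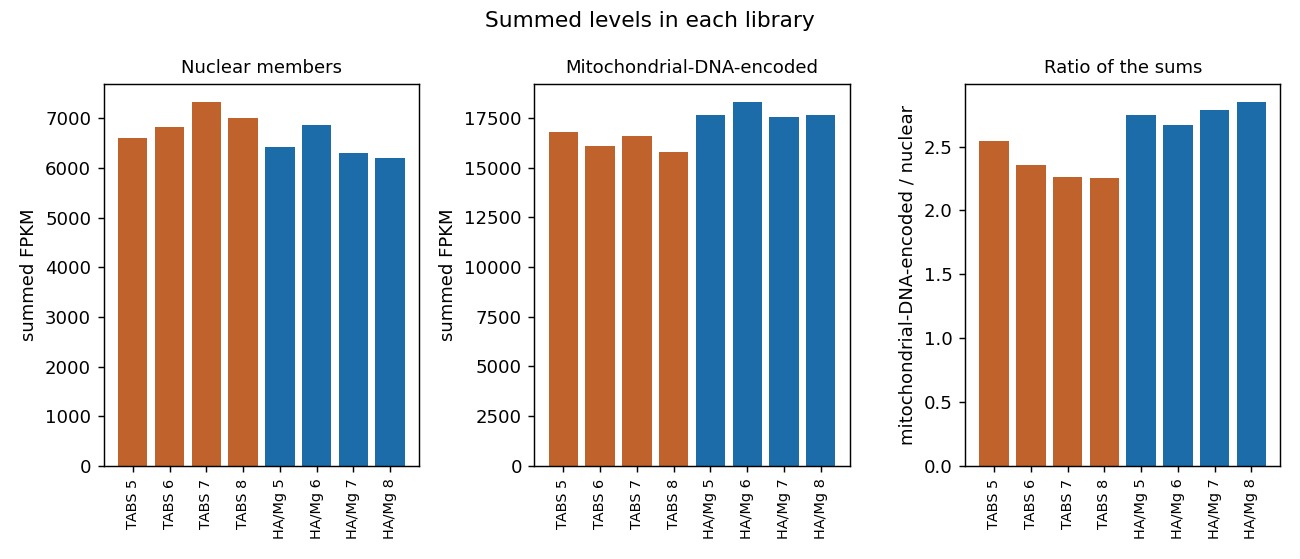
Summed FPKM of the nuclear members (left), of the subunits encoded by mitochondrial DNA (middle) and the ratio of the second sum to the first (right) in each library, TABS in orange and HA/Mg in blue, with bars from 0. The nuclear sums overlap between the groups, while the ratio is 2.25 to 2.54 with TABS and 2.67 to 2.85 with HA/Mg. Neither sum was adjusted for length and GC trends.

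Genes that build, serve or regulate the complexes were read from lists beside the members. Of 51 assembly factors 47 were tested, and 3 were called higher, 3 lower and 41 not, with a median log2 change of -0.01. Over all tested genes 5.07% were called higher and 13.1% lower, so 3 of 47 is near that background for higher genes and below it for lower ones. Sdhaf1, which helps insert iron-sulfur clusters into complex II, averaged 21.4 ± 0.938 FPKM with TABS and 18.6 ± 1.27 FPKM with HA/Mg (adjusted p = 0.0424). Bcs1l, which inserts the Rieske protein into complex III, averaged 12.7 ± 0.604 FPKM with TABS and 10.9 ± 0.415 FPKM with HA/Mg (adjusted p = 0.0293). Coa4, a complex IV factor, averaged 4.12 ± 0.281 FPKM with TABS and 3.38 ± 0.181 FPKM with HA/Mg (adjusted p = 0.0396). On the lower side, Ndufaf1, which serves complex I assembly, had 5.98, 6.37, 6.46 and 7.09 FPKM in TABS libraries, against 9.96, 7.29, 8.71 and 9.93 FPKM with HA/Mg (log2 change -0.41 ± 0.09, adjusted p = 0.0220). Coa5 of complex IV averaged 24.9 ± 0.949 FPKM with TABS and 28.6 ± 1.95 FPKM with HA/Mg (adjusted p = 0.0454), and Tmem70, which serves complex V assembly, 23.4 ± 0.913 FPKM with TABS and 27.3 ± 1.39 FPKM with HA/Mg (adjusted p = 0.0232; SD, n = 4 each throughout). Each of these 6 calls was lost without HA/Mg replicate 5 and without HA/Mg replicate 7, with adjusted p-values up to 0.127, and none held after the removal of length and GC trends (adjusted p = 0.0549 to 0.494). Before and after that removal, the log2 changes of the 3 higher genes were 0.20 and 0.20 for Sdhaf1, 0.22 and 0.23 for Coa4 and 0.20 and 0.18 for Bcs1l. Those of the 3 lower genes were -0.41 and -0.33 for Ndufaf1, -0.19 and -0.05 for Coa5 and -0.21 and -0.09 for Tmem70. With library means kept, the changes were 0.16 for Sdhaf1, 0.18 for Coa4 and 0.14 for Bcs1l. They were then -0.38 for Ndufaf1, -0.09 for Coa5 and -0.14 for Tmem70.

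Of 12 tested regulators of mitochondrial biogenesis none was called higher and 3 were called lower, beside 13.1% lower over all tested genes. Their median log2 change was -0.25, and -0.10 after the removal of length and GC trends. Yy1, a transcription factor with sites in many such promoters, had 10.4, 10.7, 8.95 and 10.7 FPKM with TABS and 13.8, 11.6, 13.5 and 13.8 FPKM with HA/Mg (log2 change -0.34 ± 0.08, adjusted p = 0.0193). This call held after the removal of these trends (log2 change -0.27, adjusted p = 0.0268), and it was lost without HA/Mg replicate 5, 7 or 8 (adjusted p up to 0.0660). Gabpb1, a subunit of the ETS-type factor GABP, averaged 3.11 ± 0.129 FPKM with TABS and 3.96 ± 0.419 FPKM with HA/Mg (adjusted p = 0.0343), and Lrpprc, which stabilises mitochondrial mRNAs and was named after its values were seen, 14.2 ± 1.24 FPKM with TABS and 17.0 ± 0.865 FPKM with HA/Mg (adjusted p = 0.0354; SD, n = 4 each). Both calls were lost after the removal of these trends (log2 change -0.12 with an adjusted p of 0.239 for Gabpb1, and -0.13 with 0.116 for Lrpprc) and in 7 and 6 of the 8 repeats with a library left out. Ppargc1a, the coactivator that drives biogenesis in muscle and brown fat, was listed at 0 in all libraries, and Nrf1 stood at 3.68 FPKM with TABS and 3.75 FPKM with HA/Mg. None of the 6 tested carriers and channels for adenine nucleotides and phosphate was called. The same held for the 3 tested genes listed because their symbols fall outside the rule, Ndufab1, Atpif1 and Usmg5.

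Some markers of the line itself also differed. Of 8 tested macrophage markers Cd14, Cd68 and Csf1r were called higher and 5 were not, with negative log2 changes for Itgam (-0.08) and Ptprc (-0.12). Over all tested genes 5.07% were called higher. Mertk, also on the macrophage list, had at most 0.01 FPKM and was not tested. The sum of the macrophage list was 2470 to 2770 FPKM with TABS and 2034 to 2436 FPKM with HA/Mg. Its most abundant gene was Lyz2, not called, at 1418 ± 142 FPKM with TABS and 1249 ± 141 FPKM with HA/Mg (SD, n = 4 each; adjusted p = 0.200). Of the osteoclast markers 6 of 8 were under 1 FPKM in every library, with Calcr listed at 0, while Mmp9 averaged 144 ± 12.2 FPKM with TABS and 98.1 ± 15.8 FPKM with HA/Mg (SD, n = 4 each; adjusted p = 0.0136). The calls of Csf1r and Mmp9 held with any 1 library left out, while that of Cd14 was lost without HA/Mg replicate 5 (adjusted p = 0.0581) and that of Cd68 without HA/Mg replicate 5, 7 or 8 (adjusted p up to 0.0660). The summed osteoclast markers were 131 to 162 FPKM with TABS and 87.3 to 123 FPKM with HA/Mg. Almost all of that sum was Mmp9, at 129 to 159 FPKM with TABS and 84.7 to 121 FPKM with HA/Mg. It therefore describes 1 gene rather than the list. All 9 fibroblast and osteoblast markers were under 1 FPKM. The part of these marker differences, and of the length and GC trends, in the changes of the subunit genes was not tested.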

How the data were processed

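RNA of 8 libraries, 4 per material, was sequenced as 150-base read pairs, and groups were taken from the sample titles. Per the labels' protocols, RNA was extracted with TRIzol (RNA integrity number above 7) and libraries were made with a NEBNext Ultra kit. The authors deposited FPKM values. GRCm38, fastp, STAR and DESeq2 are named in the submitters' processing notes, without versions. The counting tool, its annotation and its use of strand are not given there or in the labels. The depth was estimated from low values, of which 29.9% to 31.7% were whole numbers of fragments within 0.05, so no count test was run and each value's counting error is unknown.

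Symbols, lengths and GC content came from a GENCODE annotation of GRCm38, which matched 55154 of the 55335 identifiers. Genes that reached 1 FPKM in 4 or more libraries entered limma 3.58.1 in R 4.3.3, a linear model on log2(FPKM + 1), a pseudocount of 1, moderated by empirical Bayes with a mean-variance trend, two-sided, with Benjamini-Hochberg adjustment over all 10161 genes. The pseudocount understates changes of low genes. The steps were tested on simulated data.

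The members and lists were chosen with earlier results of these data known. Named were 17 core subunits fixed by name, in each complex up to 4 called members per direction or else the 2 smallest p-values, restricted isoforms, and up to 2 called genes per direction of each other list. One member is included in the counts but not reported here by name. Other genes were named once their values had been seen, as the text says, and so were copies, overlapping genes and neighbours. Alternatives were other pseudocounts, filters, scalings, moderation settings, array weights, trend removal by natural splines with 4 degrees of freedom, a block for the replicate number, and leaving out each library. Trend removal with library means kept was added after seeing the data.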

Additional observations from a re-analysis of the deposited data

Results flagged for a closer look

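By Dixon's criterion for groups of 4 libraries, which sets the gap between an extreme library and its nearest neighbour against the group's range, 4 of 86 groups examined held a library far from the others. Chance alone gives about 1 in 20. Yy1 was lowest at 8.95 FPKM in TABS replicate 7, where the other TABS libraries had 10.4, 10.7 and 10.7 FPKM. Yy1 was also lowest at 11.6 FPKM in HA/Mg replicate 6, where the other HA/Mg libraries had 13.8, 13.5 and 13.8 FPKM. Cox6a1 was highest at 390 FPKM in HA/Mg replicate 6, where the other HA/Mg libraries had 317, 314 and 306 FPKM. Cox7a2l was lowest at 142 FPKM in HA/Mg replicate 8, where the other HA/Mg libraries had 239, 246 and 237 FPKM.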

How the results depend on the processing

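Under every alternative run the members' median log2 change differed from its main value by less than 0.0638. That figure is the pooled SD, over the libraries of a group, of the members' median. It describes single libraries rather than a difference of group means, so it does not measure the precision of the change. The members' median log2 change was 0.07 to 0.11 with a library left out. The main value is 0.09, and by more than 1.5 times it was lower after rescaling to equal sums (0.04), leaving out abundant gene classes (0.04) and removing trends with library means kept (0.03), and higher after median-of-ratios scaling (0.14). No log2 change of a named gene changed sign where it was called, with or without the alternative. Signs of uncalled changes near 0 did turn under some alternatives for Ndufv1, Ndufb4, Sdha, Sdhb, Sdhd, Uqcrfs1, Cyc1, Cycs, Cox5a, Cox6a1, Cox6a2, Atp5a1, Atp5d and Atp5g3. Of the named genes' values under the alternatives, 846 stood on the same side of the threshold, 161 no longer passed it and 20 newly passed it.

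The count of called members did not hold. Rescaling to equal sums and leaving out abundant gene classes each gave 2 lower members. Removal of length and GC trends gave 1 higher and 0 lower members and 647 genes over the whole table, against 1842. With library means kept, an alternative chosen after seeing the data, it gave 2 lower members and 783 genes. Array weights gave 13 higher and 2 lower members and 3532 genes, and no filter on low values gave 808 genes. With 1 library left out, the members called were 0 to 13 higher and 0 to 1 lower, and the genes called 429 to 3320. The cause was not tested.

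Replicate numbers are shared between the groups, but same-numbered libraries did not deviate together (correlations of 0.011, -0.275, -0.16 and 0.128 for numbers 5 to 8). So few correlations cannot decide whether same-numbered libraries shared a culture or a batch, and the labels do not say. With the replicate block 0 members were called higher, 0 lower and 0 genes over the table (limma, smallest adjusted p 0.0589), with 11 members and 2987 genes at an unadjusted p under 0.05. The replicate block with length and GC trends removed also gave 0, 0 and 0, with 15 members and 2223 genes at an unadjusted p under 0.05.

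A member that was not called is not shown to be equal between the materials: the 95% intervals of 3 members, Uqcr10, Cox7a2l and Cox8a, reached beyond 0.5 on the log2 scale. Levels of members with near-identical copies or opposite-strand partners are uncertain.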
